A study of Mus musculus with 6 samples.

Results

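The 9 genes described here encode nuclear receptors outside the retinoid receptor and peroxisome proliferator-activated receptor (PPAR) families, chosen by name as *Nr4a1*, *Nr4a2*, *Nr4a3*, *Nr2f1*, *Nr2f2*, *Nr3c1*, *Nr3c2*, *Esr1* and *Nr1h3*. All 9 had a row among the 25140 genes of the count table, and all 9 passed the filter on low counts that left 14334 genes for testing. The data were poly(A) RNA-seq of primary cardiac fibroblasts, which the labels describe as isolated from adult hearts of C57BL/6 mice and used at passage 1. The study's methods also name cardiac fibroblasts for these RNA-seq data. Its results text and figure legends name mouse embryonic fibroblasts, so the sources differ on the cell type, and the labels are followed here. All cultures were grown in 10% fetal bovine serum and shifted to 1% serum for 16 h according to the labels, while the study's methods give a longer time. The treated group then received TGFβ, a cytokine that drives fibroblasts toward the contractile myofibroblast state, at 10 ng/ml for 24 h, and the vehicle group received none. Each group had 3 libraries that the study calls biological replicates, and whether they came from separate animals was not stated, so the p-values measure only the spread between these libraries, which may in part be technical. Gene positions below are those of the GENCODE M21 annotation of mm10, the build of the deposited counts. The question was which of these receptors differed in mRNA level between vehicle and TGFβ.

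Total counts ranged from 27851677 to 31072338 per library. The columns of the table name the group only, so libraries are identified below by their total counts, and values are given in 1 fixed order: vehicle libraries of 31072338, 29296570 and 29331999 counts, then TGFβ libraries of 27851677, 28894151 and 28641986 counts. The treatment registered in 6 of 7 tested TGFβ response genes, which rose, among them *Postn* (log2 fold change 1.55, SE 0.12) and *Acta2* (1.03, SE 0.08). Fibroblast markers were abundant, with the fibroblast transcription factor *Tcf21* at 303 ± 3.54 CPM (reads per 1e+06 counted, after scaling library totals by edgeR's TMM factors) in vehicle and 147 ± 2.05 in TGFβ (mean ± SD, n = 3). Of the 8 fibroblast markers, 6 fell and 0 rose, where 20.1% of all genes tested fell and 20.5% rose. The median log2 fold change was -0.44, and those that fell included *Pdgfra* (-1.37, SE 0.08) and *Col3a1* (-0.94, SE 0.13). In 1 marker all TGFβ libraries lay above all vehicle libraries, and DESeq2 and limma-voom each called 7 of the 8. Most of this marker set fell alongside the receptors, and its part in their fall was not tested. The 6 cardiomyocyte markers summed to 38.4 to 59.1 CPM in vehicle and 27.1 to 40.1 in TGFβ, nearly all of it *Tnnt2* (46.7 ± 10.5 and 34.0 ± 6.62 CPM), and *Myh6* was at 0.254 and 0.0960 CPM. Of the 2 tested, edgeR called 0, 1 had an unadjusted p under 0.05, DESeq2 called 1 and limma-voom called 0. The endothelial markers summed to 443 to 676 CPM in vehicle and 402 to 551 in TGFβ, so endothelial RNA was present in every library. The leukocyte markers summed to 251 to 362 and 215 to 322 CPM. In bulk RNA, fewer cells of a type and less RNA per cell cannot be told apart.

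Nuclear receptors are transcription factors with a zinc-finger DNA-binding domain and a ligand-binding domain, and many switch between corepressor and coactivator complexes when a small lipophilic ligand binds. The NR4A receptors are orphans whose activity follows mainly from how much is made, and they are induced within minutes to hours of a stimulus as immediate early genes. *Nr2f1* and *Nr2f2* encode the COUP-TFs, orphan receptors of mesenchymal and endothelial development, with *Nr2f2* known for venous and atrial identity. *Nr3c1* encodes the glucocorticoid receptor, *Nr3c2* the mineralocorticoid receptor and *Esr1* estrogen receptor α, which are steroid-activated, and *Nr1h3* encodes liver X receptor α (LXRα), an oxysterol sensor of cholesterol efflux. NR4A1 is known as a brake on TGFβ signalling through corepressors in fibroblasts, and mineralocorticoid receptor antagonists are used against heart failure.

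Of the 9 receptors, 5 fell with TGFβ (*Nr4a1*, *Nr2f2*, *Nr3c1*, *Nr3c2* and *Nr1h3*), 1 rose (*Nr2f1*), and *Nr4a2*, *Nr4a3* and *Esr1* did not pass the test. The test was edgeR's quasi-likelihood test on the counts over all 14334 genes, and a gene was called at a Benjamini-Hochberg adjusted p under 0.05. The 6 called receptors are 66.7% of the 9, while 40.7% of all genes tested were called, 20.1% lower and 20.5% higher. At an adjusted p under 0.01, 3 receptors (*Nr2f2*, *Nr3c1* and *Nr1h3*) and 25.1% of all genes were called, and with a log2 fold change beyond 1 as well as an adjusted p under 0.05, 1 receptor (*Nr4a1*) and 6.77% of all genes. The median log2 fold change of the 9 was -0.58, against -0.0013 over all genes tested. The 3 vehicle and 3 TGFβ libraries did not overlap for 7 receptors, 6 lower and 1 higher, where 53.3% of all genes did not overlap, 26.1% lower and 27.2% higher with TGFβ. With 9 receptors these shares are a description of a named set and no test of the set was made. For a single gene, an exact permutation test of 3 against 3 libraries cannot give a p below 0.1, and the adjusted p-values given below are all from edgeR. The per-library plot of the receptors shows the values behind these calls.

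**Figure D1:**
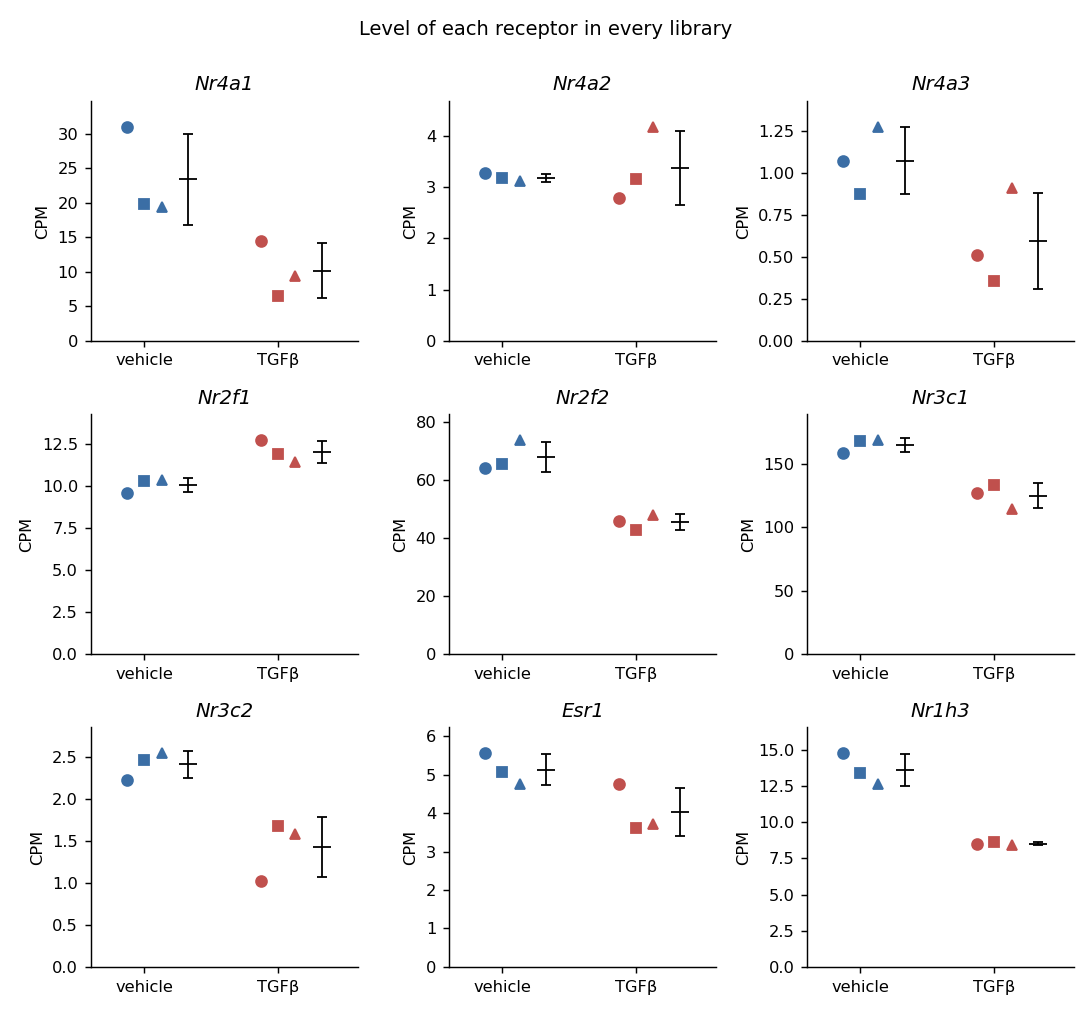
CPM of each of the 9 receptors in the 3 vehicle and 3 TGFβ libraries, 1 panel per gene, with points for libraries and bars for the group mean and SD. The 3 TGFβ points lie below all vehicle points for 6 receptors, above them for *Nr2f1*, and overlap them for *Nr4a2* and *Nr4a3*.

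The levels of the receptors ranged widely. Levels were compared between genes as TPM, the CPM-like share that divides each count by the summed exon length of the gene before scaling. *Nr3c1* was the most abundant of the 9, at 87.1 ± 2.77 TPM in vehicle and 62.7 ± 4.05 in TGFβ (SD, n = 3). It was followed in vehicle by *Nr2f2* at 31.9 ± 2.22, *Nr4a1* at 27.1 ± 7.67, *Nr1h3* at 21.9 ± 1.86 and *Nr2f1* at 8.01 ± 0.314 TPM. The remaining receptors were scarce, with *Nr4a2* at 3.18 ± 0.0918, *Esr1* at 1.52 ± 0.127, *Nr3c2* at 1.51 ± 0.0967 and *Nr4a3* at 0.726 ± 0.130 TPM. Among neighbours in this order, the vehicle libraries overlapped for *Nr2f2* and *Nr4a1*, for *Nr4a1* and *Nr1h3*, and for *Esr1* and *Nr3c2*, and were apart for the other pairs.

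In TGFβ the order of the upper receptors shifted, because *Nr4a1* at 11.2 ± 4.66 TPM stood below *Nr1h3* at 13.1 ± 0.261, although the libraries of this pair overlapped. *Nr4a1* also overlapped *Nr2f1*, which stood at 9.12 ± 0.613 TPM. *Nr2f2* was at 20.4 ± 1.65, *Nr4a2* at 3.21 ± 0.714, *Esr1* at 1.14 ± 0.200, *Nr3c2* at 0.850 ± 0.198 and *Nr4a3* at 0.385 ± 0.191 TPM. Among the 44 nuclear receptors with a row in the table, *Nr3c1* ranked 2 in vehicle and 4 in TGFβ by this length, but 5 and 4 with the longest transcript, and *Nr4a1* ranked 12 and 20, or 13 and 20. The 9 receptors made up 18.6 to 19.7% of the summed TPM of the 44 in vehicle libraries and 14.9 to 16.1% in TGFβ libraries. *Nr3c1* alone supplied 44.5 to 49.5% of the TPM of the 9 in vehicle and 48.9 to 55.5% in TGFβ. The length used mattered most for 2 genes: with the longest transcript in place of all exons, *Nr2f2* came to 49.4 and 31.7 TPM and *Esr1* to 2.49 and 1.87 TPM in vehicle and TGFβ, and the order of the 9 was the same.

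**Figure D2:**
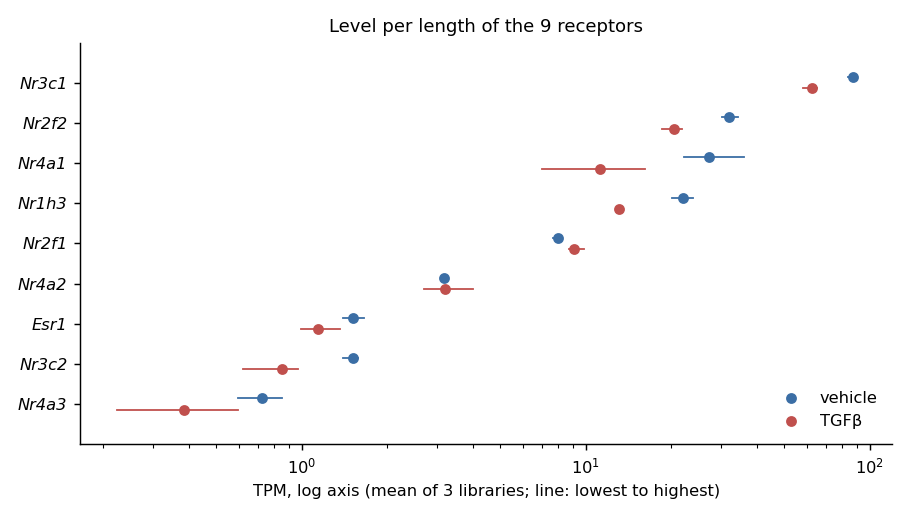
Levels of the 9 receptors in TPM on a log axis in vehicle and TGFβ, with points for the mean of 3 libraries and lines from the lowest to the highest library. *Nr3c1* stands highest of the 9 at 87.1 TPM in vehicle and *Nr4a3* lowest at 0.726 TPM.

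Of the NR4A receptors, *Nr4a1* fell, *Nr4a3* had a lower mean that missed the threshold, and *Nr4a2* had similar means in both groups. The sequence before the RefSeq transcription start is shown for these 3 genes because they share a motif that none of the other receptors' windows held. The motif is TGACG, the core of the cAMP response element bound by CREB-family factors, through which these genes are known to be induced. The stretches are the 250 bases before the RefSeq start in GRCm38.p6, 5′ to 3′ on the gene's strand, with TGACG or its reverse complement CGTCA in capitals: chr15:101266596-101266845 (plus strand) for *Nr4a1*, chr2:57124004-57124253 (minus strand) for *Nr4a2* and chr4:48045055-48045304 (plus strand) for *Nr4a3*.
Nr4a1: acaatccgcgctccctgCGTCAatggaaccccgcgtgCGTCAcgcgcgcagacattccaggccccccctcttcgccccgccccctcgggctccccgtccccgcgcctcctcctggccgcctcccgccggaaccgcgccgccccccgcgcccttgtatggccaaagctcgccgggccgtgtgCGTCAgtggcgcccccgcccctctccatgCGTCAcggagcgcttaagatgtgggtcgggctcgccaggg
Nr4a2: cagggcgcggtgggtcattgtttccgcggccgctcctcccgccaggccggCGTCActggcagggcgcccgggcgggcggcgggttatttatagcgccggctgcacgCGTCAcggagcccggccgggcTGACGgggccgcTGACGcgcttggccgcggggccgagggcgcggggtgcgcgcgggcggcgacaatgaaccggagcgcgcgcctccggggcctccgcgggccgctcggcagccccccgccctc
Nr4a3: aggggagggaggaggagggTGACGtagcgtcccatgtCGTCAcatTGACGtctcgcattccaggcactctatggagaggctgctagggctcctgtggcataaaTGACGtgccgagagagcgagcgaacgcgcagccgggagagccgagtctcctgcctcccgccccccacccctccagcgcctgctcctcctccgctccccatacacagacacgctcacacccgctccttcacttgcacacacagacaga
Each of the 3 stretches held 4 copies. In *Nr4a1* they began at positions -233, -213, -69 and -40 from the start, in *Nr4a2* at -200, -144, -123 and -111, and in *Nr4a3* at -231, -213, -205 and -147. The *Nr4a1* stretch lies inside the annotated gene of chr15:101254269-101274795, since the annotation also holds transcripts that begin upstream. The last part of the *Nr4a3* stretch, with its copy at -147, also lies inside the annotated gene, which begins at 48045153.

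Windows were searched from 250 bases before to 50 after each start, on both strands, in a RefSeq table that held 8 of the 9 receptors in 11 windows and none for *Nr3c1*. TGACG occurred in 20.8% of the 32851 windows of the table and in 3 of the 11 receptor windows, those of *Nr4a1*, *Nr4a2* and *Nr4a3*. The full palindrome TGACGTCA, which contains TGACG, occurred in 1.79% of all windows and in 0 receptor windows. CAGACA, the core of the SMAD-bound CAGA box, was in 4 of the 11, those of *Nr4a1*, *Nr4a3*, *Nr2f2* and 1 window of *Esr1*, against 21.0% of all windows. The SMAD palindrome GTCTAGAC was in 1 *Esr1* window, against 0.213%. The AP-1 site TGANTCA (7.81% of all windows) and the NR4A monomer site AAAGGTCA (1.51%) were in 0 receptor windows. The palindromic estrogen element (0.0700% of all windows), the palindromic glucocorticoid element (0.00913%) and the direct-repeat LXR element (0.0152%) were also in 0 receptor windows. A match or its lack describes the letters of these windows only.

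*Nr4a1* (ENSMUSG00000023034, chr15:101254269-101274795, plus strand) encodes NUR77, the NR4A receptor most studied in fibrosis. It stood at 31.0, 19.9 and 19.4 CPM in vehicle and at 14.5, 6.55 and 9.44 CPM in TGFβ. All 3 TGFβ libraries lay below all vehicle libraries, and both groups were wide, each with 1 library well above its other two. The mean fell from 23.4 ± 6.58 to 10.2 ± 4.01 CPM (SD, n = 3). By the edgeR fit the fall was 56.8%, a log2 fold change of -1.21 (SE 0.29, 95% interval -1.88 to -0.54, edgeR adjusted p = 0.0121). This size of change was past that of 95.1% of all genes tested, and the within-group spread, an SD of 0.483 on the log2 scale, was past that of 95.8% of genes. The median spread over all genes was 0.0991.

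*Nr4a3* (ENSMUSG00000028341, chr4:48045153-48086447, plus strand), which encodes NOR1, rested on 10 to 38 reads per library. Its values were 1.07, 0.877 and 1.27 CPM in vehicle and 0.512, 0.358 and 0.912 CPM in TGFβ. The highest TGFβ library lay above the lowest vehicle library. The means were 1.07 ± 0.199 and 0.594 ± 0.286 CPM, with a log2 fold change of -0.84 (SE 0.34, 95% interval -1.63 to -0.06) and an edgeR adjusted p of 0.0813. Without the TGFβ library of 28641986 counts, the fold change was -1.30 and the adjusted p 0.0156 in edgeR. This was the only 1 of the 11 alternative fits that kept *Nr4a3* in which it was called. Over the fits that left out 1 library, the fold change was -1.30 to -0.59 and the edgeR adjusted p 0.0156 to 0.217.

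*Nr4a2* (ENSMUSG00000026826, chr2:57106830-57124003, minus strand) encodes NURR1, known best for its part in dopaminergic neurons. It stood at 3.27, 3.17 and 3.12 CPM in vehicle and at 2.78, 3.15 and 4.17 CPM in TGFβ. The vehicle libraries were tight and the TGFβ libraries spread to both sides of them. These values rested on 93 to 104 reads per vehicle library and 76 to 119 per TGFβ library. The part of counting noise in this contrast was not tested. The log2 fold change was 0.08 (SE 0.17, 95% interval -0.30 to 0.47, edgeR adjusted p = 0.729), and the interval excludes a change as deep as -1.21, the value of *Nr4a1*. Its sign was negative, at -0.11, without the TGFβ library of 28641986 counts.

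The balance within the subfamily was compared as log2 ratios of counts in each library, 5 ratios in all over the paralogous receptors. *Nr4a1* over *Nr4a2* was 2.84 ± 0.35 in vehicle and 1.53 ± 0.73 in TGFβ, a difference of -1.30 with no overlap between groups. *Nr4a2* over *Nr4a3* was 1.57 ± 0.28 and 2.55 ± 0.47, a difference of 0.98, again without overlap. *Nr4a1* over *Nr4a3* was 4.41 ± 0.47 and 4.08 ± 0.71, and the groups overlapped, so the change of *Nr4a1* was not shown to differ from that of *Nr4a3*. The exact permutation p was 0.1 for the first pair of ratios (0.125 adjusted over the 5 ratios) and 0.6 for the last.

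Most of the other immediate early genes fell. Of 12 genes of this class, 7 fell and 1 rose, against the 20.1% and 20.5% of all genes tested, with a median log2 fold change of -0.56. The AP-1 subunits *Fos* (-1.60, SE 0.15) and *Fosb* (-1.76, SE 0.13), the zinc-finger factor *Egr1* (-0.98, SE 0.11) and the phosphatase gene *Dusp1* (-0.89, SE 0.16) were among those that fell, while *Ier3* rose (0.32, SE 0.08). *Jun* (-0.53), *Junb* (-0.59) and *Ier2* (-1.14) completed the group that fell, and *Fosl1* (0.56), *Egr2* (0.19), *Egr3* (-0.37) and *Atf3* (0.07) did not pass. *Nr4a1* was highest in the vehicle library of 31072338 counts, which was also the highest vehicle library for 9 of the 12 genes. It was lowest in the TGFβ library of 28894151 counts, the lowest TGFβ library for 11 of the 12. *Nr4a3* and *Nr4a2* were highest of the TGFβ libraries in that of 28641986 counts, as were 5 of the 12. *Nr4a2* was highest in the vehicle library of 31072338 counts, but lowest of the TGFβ libraries in that of 27851677 counts. *Nr4a3* was lowest in the TGFβ library of 28894151 counts, but highest of the vehicle libraries in that of 29331999 counts. *Nr4a1* was highest of the TGFβ libraries in that of 27851677 counts, as were 7 of the 12. The 5 mesothelial markers, which summed to 85.1, 24.1 and 32.5 CPM in vehicle and 41.3, 15.2 and 17.7 in TGFβ, and the cardiomyocyte markers were also highest in the vehicle library of 31072338 counts and the TGFβ library of 27851677 counts, and lowest among TGFβ libraries in that of 28894151 counts. No mesothelial marker was called by edgeR, 1 of the 5 had an unadjusted p under 0.05, and DESeq2 and limma-voom called 0. The log2 fold change of *Nr4a1* was -0.95 (edgeR adjusted p = 0.0349) when the vehicle library of 31072338 counts was left out and -1.55 (edgeR adjusted p = 0.00709) when the TGFβ library of 27851677 counts was.

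**Figure D3:**
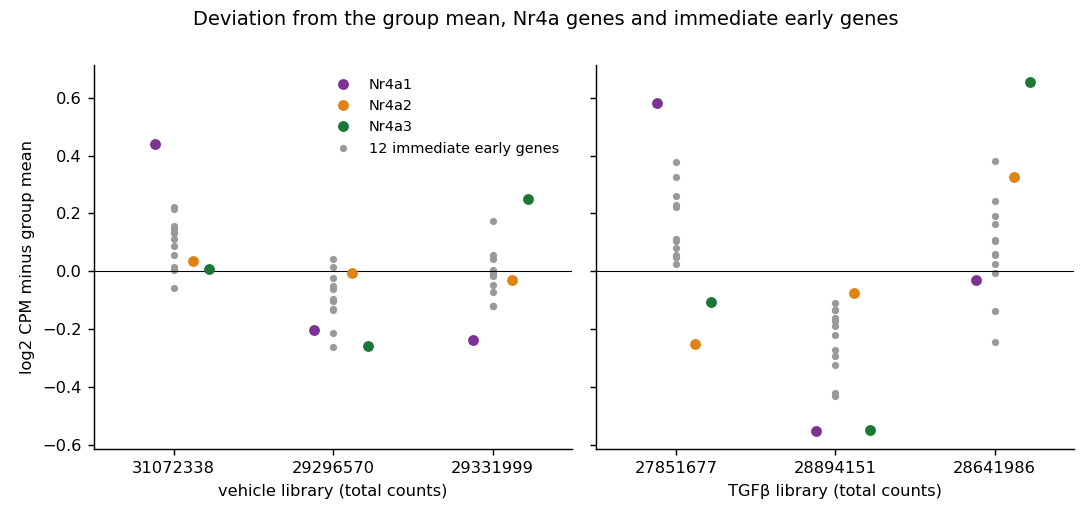
Deviation of each library from its group mean, in log2 CPM, for the NR4A receptors and the 12 immediate early genes. *Nr4a1* deviates by 0.44, -0.20 and -0.24 in vehicle and by 0.58, -0.55 and -0.03 in TGFβ.

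The complex through which NR4A1 is known to repress TGFβ target genes includes SP1, SIN3A, coREST, LSD1 and HDAC1. Its genes moved little and in both directions. *Sin3a* fell (-0.25, SE 0.06), *Hdac1* (0.24, SE 0.05) and *Rcor1* (0.11, SE 0.03) rose, and *Sp1* and *Kdm1a* did not pass, with a median of 0.07 over the 5.

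The COUP-TF genes moved in opposite directions. *Nr2f2* (ENSMUSG00000030551, chr7:70351944-70366735, minus strand), which encodes COUP-TFII, stood at 64.3, 65.4 and 73.8 CPM in vehicle and at 45.7, 42.7 and 48.0 CPM in TGFβ. Every TGFβ library was well below every vehicle library. The mean fell by 32.96%, from 67.8 ± 5.19 to 45.5 ± 2.64 CPM (SD, n = 3), with a log2 fold change of -0.58 (SE 0.07, 95% interval -0.73 to -0.42, edgeR adjusted p = 0.000446).

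*Nr2f1* (ENSMUSG00000069171, chr13:78188973-78199757, minus strand), which encodes COUP-TFI, a receptor of neural crest and cortical patterning, was the only 1 of the 9 receptors that rose. Its values were 9.58, 10.3 and 10.3 CPM in vehicle and 12.7, 11.9 and 11.4 CPM in TGFβ. The groups were apart by a small margin and each was narrow. The mean rose from 10.1 ± 0.416 to 12.02 ± 0.652 CPM, by 19.4%, with a log2 fold change of 0.26 (SE 0.07, 95% interval 0.09 to 0.42, edgeR adjusted p = 0.0248). The call was lost in DESeq2 (adjusted p = 0.0864) and in 4 of the 6 edgeR fits that left out 1 library, with adjusted p-values of 0.0576 to 0.0836.

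The log2 ratio of *Nr2f1* to *Nr2f2* counts was -2.75 ± 0.08 in vehicle and -1.92 ± 0.13 in TGFβ, a difference of 0.83 with no overlap (exact permutation p = 0.1, adjusted 0.125). Reads of *Nr2f1* may overlap those of the antisense gene *A830082K12Rik*, which shares 123 exon bases with it on the opposite strand and had 20.4% as many counts. The libraries are stranded, but whether the counting used the strand was not given in the sources used here. *A830082K12Rik* did not pass the test (log2 fold change 0.33, SE 0.17, edgeR adjusted p = 0.159). For *Nr2f2*, the antisense gene *B130024G19Rik* shares 643 exon bases and held 0.310% as many counts.

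Known partners of the COUP-TFs, among them the zinc-finger cofactor *Zfpm2* (0.08, SE 0.07) and the cardiac factor *Gata4* (-0.14, SE 0.08), gave no call. None of the 5 tested was called by edgeR, where 40.7% of all genes tested were called. Of the 5, 1 had an unadjusted edgeR p under 0.05, DESeq2 called 1 and limma-voom called 0. *Nr2f2* is also abundant in venous endothelium. None of the 7 endothelial markers was called, 0 had an unadjusted p under 0.05 and DESeq2 and limma-voom called 0, with a median log2 fold change of -0.28 and overlapping group sums. *Pecam1* (-0.34, SE 0.21) and *Cdh5* (-0.38, SE 0.24) were highest in the vehicle library of 29331999 counts, where *Nr2f2* was also highest at 73.8 CPM. Without that library the log2 fold change of *Nr2f2* was -0.51. Pericyte and smooth muscle markers summed to 248 to 272 CPM in vehicle and 101 to 134 in TGFβ. This drop was carried by *Notch3* (-1.85, SE 0.10), the 1 of the 6 markers that was called, while the median log2 fold change of the 6 was 0.08. The part of these cell types in the level of *Nr2f2* was not tested.

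**Figure D4:**
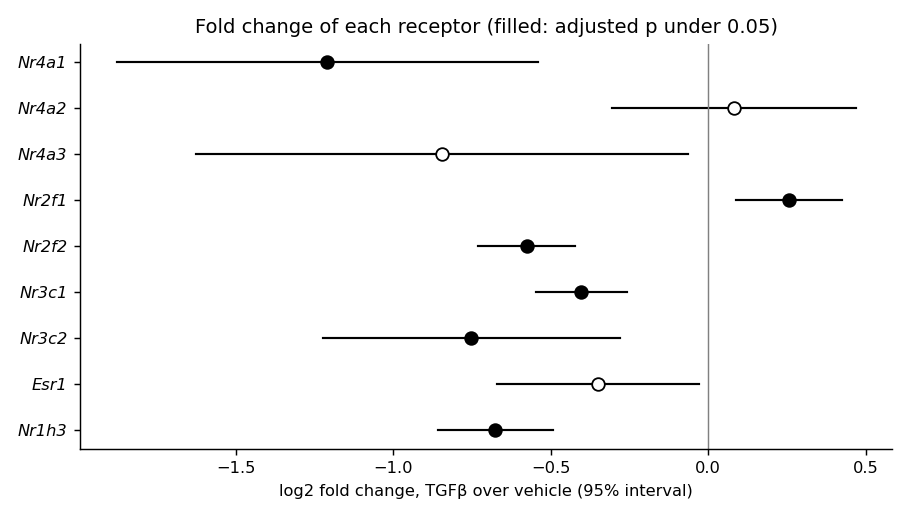
Log2 fold change of each of the 9 receptors (TGFβ over vehicle) with its 95% interval from edgeR. *Nr4a1* lies lowest at -1.21 with a wide interval, *Nr2f1* is the only receptor with an interval above 0, and the interval of *Nr4a2* takes in 0. The intervals are not adjusted for the number of genes tested, and those of *Nr4a3* and *Esr1*, which were not called, lie below 0.

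Among the steroid receptors, the glucocorticoid and mineralocorticoid receptor genes fell. *Nr3c1* (ENSMUSG00000024431, chr18:39410545-39519421, minus strand) stood at 159, 168 and 169 CPM in vehicle and at 127, 133 and 114 CPM in TGFβ. It was the best covered of the 9, with 3252 to 5051 reads per library, and its groups were far apart. The mean fell by 24.4%, from 165 ± 5.63 to 125 ± 9.88 CPM (SD, n = 3), with a log2 fold change of -0.40 (SE 0.06, 95% interval -0.55 to -0.26, edgeR adjusted p = 0.00172).

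*Nr3c2* (ENSMUSG00000031618, chr8:76899442-77245012, plus strand) was counted with 28 to 76 reads per library. It stood at 2.23, 2.46 and 2.55 CPM in vehicle and at 1.02, 1.68 and 1.58 CPM in TGFβ. The vehicle libraries were close together, and 1 TGFβ library lay well below the other two. The mean fell from 2.41 ± 0.164 to 1.43 ± 0.354 CPM. By the edgeR fit *Nr3c2* fell by 40.6%, a log2 fold change of -0.75 (SE 0.20, 95% interval -1.22 to -0.28, edgeR adjusted p = 0.0201). It no longer passed in edgeR when the vehicle library totalling 29296570 was left out (adjusted p = 0.0587), nor when the one totalling 29331999 was (adjusted p = 0.0549). The log2 ratio of *Nr3c1* to *Nr3c2* counts was 6.09 ± 0.05 in vehicle and 6.46 ± 0.41 in TGFβ, a difference of 0.37 without overlap (exact permutation p = 0.1, adjusted 0.125). It came to 0.14 when the TGFβ library of 27851677 counts was left out.

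Genes of the enzymes that set local glucocorticoid supply fell too. *Hsd11b1*, which encodes the enzyme that regenerates active glucocorticoid from its inactive keto form, fell from 326 ± 19.8 to 127 ± 7.26 CPM (log2 fold change -1.36, SE 0.06, edgeR adjusted p = 8.51e-06). *H6pd*, whose product supplies the NADPH for that reaction in the endoplasmic reticulum, fell from 456 ± 34.4 to 263 ± 27.2 CPM (-0.79, SE 0.08, edgeR adjusted p = 0.000312). *Hsd11b2*, the inactivating enzyme that protects the mineralocorticoid receptor from glucocorticoid, was under the filter with 0 to 3 reads per library.

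Most genes of the steroid receptor chaperones and co-chaperones rose. Of 8 genes, 6 rose and 0 fell, where 20.5% of all genes tested rose and 20.1% fell, with a median of 0.19. Those that rose included the co-chaperone *Bag1* (0.46, SE 0.04), the immunophilins *Fkbp5* (0.54, SE 0.07) and *Fkbp4* (0.33, SE 0.05) and the HSP90 gene *Hsp90ab1* (0.19, SE 0.05). *Hsp90aa1* (0.12, adjusted p = 0.0554 in edgeR) and *Hspa8* (-0.02) did not pass.

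Glucocorticoid receptor target genes were split. Of the 11 tested, 6 fell and 2 rose, where 20.1% of all genes tested fell and 20.5% rose, with a median of -0.55. *Cebpd* (-0.99, SE 0.06) and *Klf9* (-0.55, SE 0.03), transcription factor genes, and the metallothionein genes *Mt1* (-0.58, SE 0.16) and *Mt2* (-0.86, SE 0.27) fell, together with *Dusp1* and *Lcn2* (-1.08, SE 0.33). For *Lcn2* the vehicle and TGFβ libraries overlapped. The rise of *Fkbp5*, which also counts among the chaperones above, and of the kinase gene *Sgk1* (0.52, SE 0.11) ran against this. *Tsc22d3*, which encodes the glucocorticoid-induced leucine zipper, stood at 20.5 ± 4.06 and 22.8 ± 1.03 CPM and did not pass (0.15, SE 0.13, edgeR adjusted p = 0.420). *Dusp1* is also an immediate early gene of the list above, and several of these targets respond to other stimuli too.

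*Esr1* (ENSMUSG00000019768, chr10:4611593-5005614, plus strand) stood at 5.56, 5.06 and 4.76 CPM in vehicle and at 4.75, 3.62 and 3.72 CPM in TGFβ. The groups did not overlap, but the highest TGFβ library nearly touched the lowest vehicle library. The means were 5.13 ± 0.405 and 4.03 ± 0.628 CPM, with a log2 fold change of -0.35 (SE 0.14, 95% interval -0.67 to -0.03) and an edgeR adjusted p of 0.0796. Leaving out the TGFβ library of 27851677 counts, the one closest to vehicle, gave -0.48 and an adjusted p of 0.0296 in edgeR. This was the only 1 of 12 alternative fits that called *Esr1*. Over the fits that left out 1 library, the fold change was -0.48 to -0.28 and the edgeR adjusted p 0.0296 to 0.205. *Esr2*, the other estrogen receptor gene, was under the filter at 0.0995 and 0.0711 CPM.

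Of 5 tested estrogen receptor target genes, *Greb1* rose from 2.38 ± 0.452 to 5.90 ± 0.461 CPM (1.31, SE 0.15, edgeR adjusted p = 0.00047), and *Igfbp4*, which encodes an IGF-binding protein, fell from 826 ± 81.9 to 134 ± 26.4 CPM (-2.63, SE 0.15, edgeR adjusted p = 1.82e-05). These 2 are 40.0% of the 5, near the 40.7% called among all genes tested. The other 3 did not pass, among them the chemokine gene *Cxcl12* (-0.72), and the progesterone receptor gene *Pgr* was under the filter. Of the 5, 4 had an unadjusted edgeR p under 0.05, and DESeq2 and limma-voom each called 2. Of the 3 genes of estrogen synthesis that were listed, only *Hsd17b1* had a row, and it was not called (log2 fold change 0.20).

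*Nr1h3* (ENSMUSG00000002108, chr2:91184061-91202834, minus strand) stood at 14.8, 13.4 and 12.6 CPM in vehicle and at 8.52, 8.59 and 8.42 CPM in TGFβ. The TGFβ libraries were nearly equal, at 233 to 240 reads each, and all lay far below vehicle. The part of counting noise in their closeness was not tested. The mean fell by 37.4%, from 13.6 ± 1.09 to 8.51 ± 0.0883 CPM (SD, n = 3), with a log2 fold change of -0.68 (SE 0.08, 95% interval -0.86 to -0.49, edgeR adjusted p = 0.000453). Its paralog *Nr1h2*, which encodes the broadly expressed LXRβ, stood at 66.8 ± 2.53 and 63.3 ± 1.14 CPM and did not pass (-0.08, SE 0.04, edgeR adjusted p = 0.178).

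LXR target genes moved both ways. Of 10 tested, 4 fell and 4 rose, where 20.1% of all genes tested fell and 20.5% rose, with a median of 0.08. The genes that fell were the cholesterol exporter gene *Abca1*, from 87.9 ± 1.66 to 33.5 ± 6.14 CPM (-1.39, SE 0.12), the lipoprotein genes *Apoe* (-1.47, SE 0.30) and *Pltp* (-1.09, SE 0.07), and *Mylip* (-0.96, SE 0.06), which encodes a ligase that degrades the LDL receptor. Of the other sterol exporter genes of the list, *Abcg5* and *Abcg8* had no row. *Abcg1* rose from 6.42 ± 0.675 to 11.9 ± 2.26 CPM (0.89, SE 0.15), as did *Arl4c* (0.72, SE 0.06), the desaturase gene *Scd2* (0.40, SE 0.12) and *Lpcat3* (0.16, SE 0.04). *Srebf1*, the lipogenic factor gene, was at 132 ± 3.66 and 134 ± 2.09 CPM and did not pass. *Nr1h3* and *Apoe* are also abundant in macrophages. Of 7 leukocyte markers, *Cd14* fell (-0.75, SE 0.25, edgeR adjusted p = 0.0436), *Ptprc* stood at 3.64 ± 0.754 and 2.99 ± 0.476 CPM without passing (-0.28, SE 0.19), and the summed levels overlapped. DESeq2 called 1 of the 7 and limma-voom called 0. *Apoe* was highest in the vehicle library of 29331999 counts at 292 CPM, where the leukocyte sum was also highest at 362 CPM, whereas *Nr1h3* was lowest among vehicle libraries there. The part of leukocyte RNA in these levels was not tested.

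The rest of the superfamily gives the setting. Of the 24 tested nuclear receptors outside the 9, the retinoid and PPAR genes included, 9 fell and 5 rose, with a median of -0.13. *Thra*, the thyroid hormone receptor gene, fell from 84.3 ± 2.87 to 41.2 ± 0.898 CPM (-1.03, SE 0.04). *Vdr*, the vitamin D receptor gene (1.03, SE 0.11), and *Esrrg*, an estrogen-related orphan receptor gene (2.03, SE 0.19), rose. *Nr2f6*, the remaining COUP-TF-like gene, rose slightly (0.14, SE 0.04), and *Rxra*, the main heterodimer partner of *Nr1h3*, fell (-0.38, SE 0.05). With the 9 included, 14 of 33 tested receptors fell and 6 rose, where 20.1% of all genes tested fell and 20.5% rose.

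Among 12 receptor coregulators, 6 fell and 1 rose, where 20.1% of all genes tested fell and 20.5% rose, with a median of -0.14. Their summed level did not fall, at 870 to 926 CPM in vehicle and 900 to 997 in TGFβ. The p160 coactivator genes *Ncoa1* (-0.27, SE 0.07), *Ncoa2* (-0.25, SE 0.08) and *Ncoa3* (-0.19, SE 0.06) fell by small steps, as did *Nrip1* (-0.21, SE 0.06). *Ppargc1a*, which encodes a metabolic coactivator, had 13 to 23 reads in vehicle libraries and 0 to 4 in TGFβ libraries (-2.92, SE 0.60, edgeR adjusted p = 0.00653), and *Ppargc1b* also fell (-0.91, SE 0.29).

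**Figure D5:**
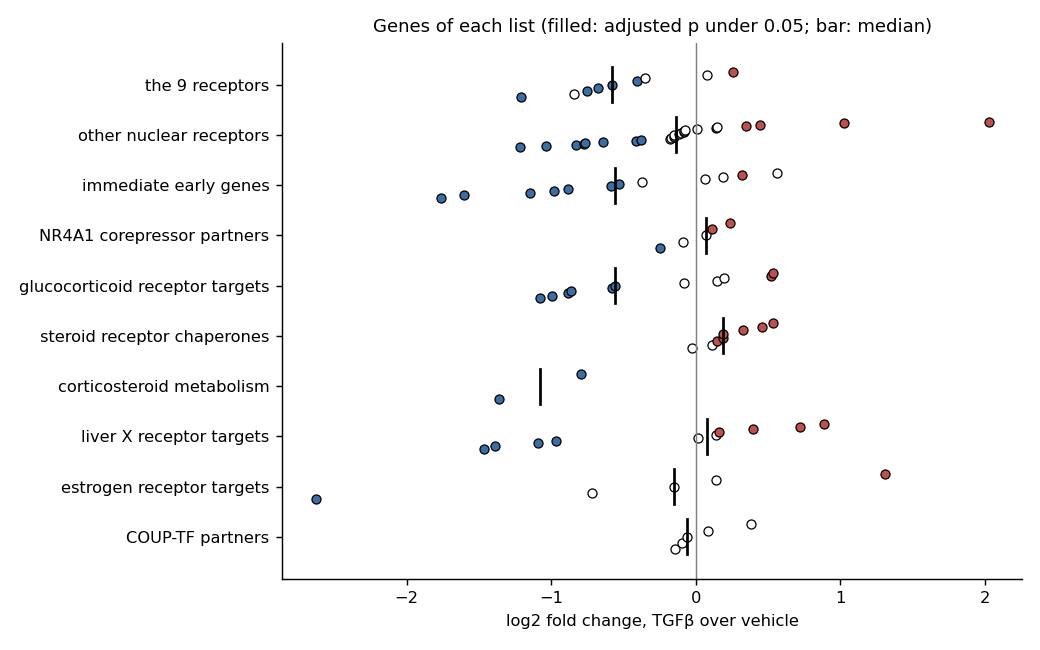
Log2 fold changes (TGFβ over vehicle) of the tested genes in each list, 1 point per gene, filled where the edgeR adjusted p was under 0.05, with the median of each list. The 9 receptors have a median of -0.58, the immediate early genes -0.56 and the chaperones 0.19.

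Genes with a profile most like each receptor over the 6 libraries were ranked by the root mean square difference of their log2 CPM after centring, over the 10368 genes that averaged 5 CPM or more. *Nr3c1* was closest to *Jmjd8* (0.0187) and *Tmem218* (0.0338), *Nr2f2* to *Slco3a1* (0.0206) and *Nectin2* (0.0406), *Nr2f1* to *Golga3* (0.0248) and *Ptpn21* (0.0272), and *Nr1h3* to *Pdpn* (0.0346) and *Tle6* (0.0374). *Esr1* was closest to *Lrig2* (0.0574) and *Cpne2* (0.0598), *Nr4a2* to *A430005L14Rik* (0.0700) and *Zfp423* (0.0771), and *Nr3c2* to *Tcf19* (0.0954) and *Arsi* (0.118). The nearest genes were farther off for *Nr4a3*, *Ackr3* (0.110) and *Twist2* (0.172), and for *Nr4a1*, *Zfp395* (0.160) and *Galnt18* (0.222). How common a profile was differed widely. Within a distance of 0.1 there were 1877 genes for *Nr2f1*, 451 for *Nr3c1*, 153 for *Nr2f2*, 91 for *Nr1h3*, 39 for *Esr1*, 18 for *Nr4a2*, 1 for *Nr3c2* and 0 for both *Nr4a1* and *Nr4a3*. The distance also takes in counting noise and the spread between replicates. *Nr4a3* rested on 10 to 38 reads per library and *Nr3c2* on 28 to 76, and *Nr4a1* had a within-group SD of 0.483. The part of this noise in the numbers of close genes was not tested. The points share 6 libraries and the genes were picked out of 10368, so this is a description of likeness only.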

How the data were processed

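Poly(A) RNA of 3 vehicle and 3 TGFβ cultures was sequenced as stranded libraries. The authors aligned reads to mm10 and deposited raw counts per gene for 25140 genes; the aligner, counter, annotation and use of strand are not given in the sources used here. The deposited DESeq2 base mean, fold change and p-value columns were not used. Of the table's rows, 45 had no symbol, and 25086 genes matched GENCODE M21 (mm10) by Ensembl identifier, which gave positions and exon lengths.

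Counts were filtered with filterByExpr, scaled by TMM and tested with edgeR 4.0.16 (glmQLFit, glmQLFTest; R 4.3.3) with Benjamini-Hochberg adjustment over 14334 genes. The SE is the fold change over the square root of F. Percent changes of the receptors are those of the edgeR fold change. CPM use TMM-scaled library totals, TPM the union of exons, and log2 CPM a prior count of 2. Ratios had 0.5 added to each count. Exact permutation tests (SciPy 1.17.1) were two-sided. The fit was tested on simulated data with 200 changed genes. DESeq2 1.42.0, limma 3.58.1 (voom), other scalings, filters and leaving out each library were alternatives. No 75-base window of the longest transcript of any of the 9 receptors occurred in another gene. The receptors, gene lists and named genes were chosen with earlier results of these data known; values were given for the 9, for up to 6 genes of a list with the smallest adjusted p, for genes in a count of 5 or fewer, and for the 2 closest profiles per receptor among genes averaging 5 CPM or more. A few list genes are not reported here. Other list genes with values were chosen after their values were seen. Counts of replicate libraries differed by more than sampling noise.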

Additional observations from a re-analysis of the deposited data

How the results depend on the processing

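*Nr4a1*, *Nr2f2*, *Nr3c1* and *Nr1h3* were called in all 12 alternative fits, with log2 fold changes over the fits that left out 1 library of -1.55 to -0.95, -0.62 to -0.51, -0.45 to -0.35 and -0.73 to -0.61. *Nr3c2* was called in 10 of 12 (-0.89 to -0.56) and *Nr2f1* in 7 of 12 (0.21 to 0.28). At an adjusted p under 0.01, 3595 genes were called (1855 higher, 1740 lower) and 3 of the 9 receptors, *Nr2f2*, *Nr3c1* and *Nr1h3*. With an adjusted p under 0.05 and a log2 fold change beyond 1 in size, 971 genes were called (346 higher, 625 lower) and 1 receptor, *Nr4a1*. Leaving out 1 library gave 4489 to 5481 called genes and 4 to 7 called receptors, 4 with the 29296570-count vehicle library left out and 7 with the 28641986-count TGFβ library left out. DESeq2 called 5038 genes and 5 receptors, limma-voom 5815 and 6, and a filter of 1 CPM in 3 libraries 5613 and 6 of the 8 receptors it kept. The fold change of *Nr4a2* ranged from -0.11 to 0.20 and the difference in the log2 ratio of *Nr4a1* to *Nr4a3* from -0.67 to 0.041 over these fits, and both changed sign, to -0.11 (edgeR adjusted p = 0.578) and 0.041, with the 28641986-count TGFβ library left out. The causes were not tested. Upper quartile scaling moved the median fold change of all genes most among the scalings, by -0.0210. No paired analysis was possible because the columns of the table carry no replicate numbers. Depth limits *Nr4a3*, *Nr3c2* and *Nr4a2* most, which rest on at most 119 reads in any library.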
